A study of Mus musculus with 24 samples.

Results

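Cdkn1a, Mdm2, Ccng1, Trp53, Btg2, Gadd45a, Gadd45b and Gadd45g, 8 genes of the p53 pathway and its DNA damage response arm, were followed in mouse cortex 1 day after an ischemic stroke. They were taken by symbol from 4 deposited tables of log2 CPM (log2 of read counts scaled to a library size set within each table). All 8 were listed in all 4 tables, among 14014 genes common to the tables. The mice were males of 3 to 4 months whose middle cerebral artery was occluded with a filament for 1 h and then reperfused for 1 day (tMCAo). They were wild type (WT) or lacked the circular RNA ciRS-7 (KO), and every animal carries the strain label C57BL/6N-Cdr1asem1Nikr. Each animal gave 1 library labelled CL and 1 labelled PI, which the labels do not spell out, so that there were 4 groups of 6 libraries, CL and PI of WT and CL and PI of KO. All animals had the surgery, and no group without it was analysed here. The labels give no promoter or cell type for the deletion of ciRS-7.

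The protein p53, encoded by Trp53, is a transcription factor that is held at a low level by the ubiquitin ligase Mdm2 and is stabilised by DNA damage and other stress. It then raises a set of target genes that stop the cell cycle, repair DNA or lead to cell death, and Mdm2 is itself a target, which closes a feedback loop. Cdkn1a encodes p21, an inhibitor of cyclin-dependent kinases, Ccng1 encodes cyclin G1, and Btg2 encodes an antiproliferative protein that binds the CCR4-NOT deadenylase and is also an immediate early gene of neurons. The GADD45 genes are small stress genes whose proteins bind PCNA and the kinase MEKK4. Gadd45a is a known p53 target, while Gadd45b and Gadd45g are raised mainly by cytokines, NF-kappaB and neuronal activity.

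In both genotypes the PI cortex had more Cdkn1a and more of all 3 GADD45 transcripts than the CL cortex, between 1.63-fold and 2.36-fold, whereas Mdm2, Ccng1, Trp53 and Btg2 did not pass the test. The calls of Cdkn1a and Gadd45b held in 12 of 12 fits that left out 1 library in each genotype. Those of Gadd45a in both genotypes and of Gadd45g in KO did not. With each animal's libraries paired, Gadd45g in KO was no longer called and Mdm2 in KO was. Between KO and WT none of the 8 genes passed the test on either side. The difference between PI and CL was not shown to depend on genotype for any of them.

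The promoters of 5 of these genes are shown as examples that hold a p53 half-site, a TATA box or a cAMP response element. They begin 200 bases upstream of the RefSeq start site (GRCm38.p6, the same coordinates as mm10) and are read 5′ to 3′ on the gene's strand. They end before the first start that RefSeq or GENCODE gives, which leaves 197 bases for Cdkn1a and 182 for Gadd45b. Positions given below are counted from the RefSeq start site. All 8 genes matched a RefSeq entry. Capitals mark a p53 half-site in Cdkn1a and Mdm2, a TATA box (TATAAA) in Gadd45b and Gadd45g, and a full cAMP response element (TGACGTCA) in Btg2.
Cdkn1a, chr17:29090779-29090975, plus strand: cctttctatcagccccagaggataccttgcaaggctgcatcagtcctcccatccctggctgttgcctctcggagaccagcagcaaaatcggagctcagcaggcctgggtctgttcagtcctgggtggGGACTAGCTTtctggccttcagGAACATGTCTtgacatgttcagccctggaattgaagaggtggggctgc
Mdm2, chr10:117710759-117710958, minus strand: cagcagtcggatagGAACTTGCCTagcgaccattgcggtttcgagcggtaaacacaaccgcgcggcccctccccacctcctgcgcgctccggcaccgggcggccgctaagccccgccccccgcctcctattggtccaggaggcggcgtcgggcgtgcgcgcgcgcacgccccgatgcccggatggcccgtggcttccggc
Gadd45b, chr10:80929891-80930072, plus strand: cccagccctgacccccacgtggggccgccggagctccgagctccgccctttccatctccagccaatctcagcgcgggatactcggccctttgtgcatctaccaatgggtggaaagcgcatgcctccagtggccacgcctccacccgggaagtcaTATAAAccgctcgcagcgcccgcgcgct
Gadd45g, chr13:51846475-51846674, plus strand: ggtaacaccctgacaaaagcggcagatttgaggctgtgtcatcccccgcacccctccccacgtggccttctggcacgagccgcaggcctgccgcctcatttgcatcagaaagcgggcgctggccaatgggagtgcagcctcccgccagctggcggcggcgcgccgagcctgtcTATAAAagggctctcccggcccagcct
Btg2, chr1:134079156-134079355, minus strand: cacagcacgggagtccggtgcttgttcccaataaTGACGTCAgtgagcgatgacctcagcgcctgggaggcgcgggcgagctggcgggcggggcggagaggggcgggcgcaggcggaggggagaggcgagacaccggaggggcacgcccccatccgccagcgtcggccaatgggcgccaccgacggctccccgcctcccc

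Matches were sought on both strands in the 250 bases upstream of the start, and a match describes letters and not a bound site. The p53 half-site, which was held by 7.13% of 32841 RefSeq promoters, occurred at 1 of the 2 RefSeq start sites of Cdkn1a, the upstream one shown here, at 2 places, 73 to 64 and 51 to 42 bases upstream, and in Mdm2, Ccng1, Trp53 and Gadd45a at 1 place each. Among these 5 genes, Cdkn1a and Gadd45a passed the test between PI and CL and Mdm2, Ccng1 and Trp53 did not. The TATA box was held by 12.4% of promoters and stood 46 to 41 bases upstream in Gadd45b, 27 to 22 in Gadd45g and, far from the start at 248 to 243, in Trp53. The full cAMP response element was held by 1.55% of promoters and stood 166 to 159 bases upstream in Btg2. It contains the shorter TGACG, which 17.8% of promoters hold and which no other of the 8 held. The core ACGTG of hypoxia response elements, at 16.6% of promoters, was found in Gadd45b and Gadd45g. The AP-1 site TGANTCA (6.75% of promoters), the CArG box (1.47%), the kappaB site (3.90%) and the STAT site TTCNNNGAA (7.02%) were not found in these windows of the 8 genes. The window of the downstream start site of Cdkn1a held none of the motifs searched.

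Effective depth, the read total by which counts were scaled, was estimated at about 5283000 to 10492000 per library and table, from the spacing of low CPM values. The level worth 3 reads was 0.286 to 0.568 CPM. The row named Cdr1as, another name of ciRS-7, stood at 11.35 to 11.89 log2 CPM in the WT libraries of the tables that hold both genotypes and under the level worth 3 reads in 12 of 12 KO libraries, as labelled. Markers of cortical neurons, astrocytes, microglia and oligodendrocytes were all listed, as the tissue label implies, and 0 of 7 lymphocyte markers were. In every gene and group the 2 lowest of 6 values are equal and so are the 2 highest, because they were drawn in to the quartiles of the group before deposit. The lowest and highest values given here are therefore quartiles, the median is exact, and statements that groups are separate, or that a side is higher within a number of animals, hold for the deposited values and not for the extremes that were replaced. Where PI and CL are separate, a count of 6 of 6 animals follows from that separation and adds nothing to it. Tests used the mean of the 4 recoverable values of a group (trimmed mean) with limma's moderation over all genes and Benjamini-Hochberg adjustment, and the call threshold was an adjusted p of 0.05.

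**Figure D1:**
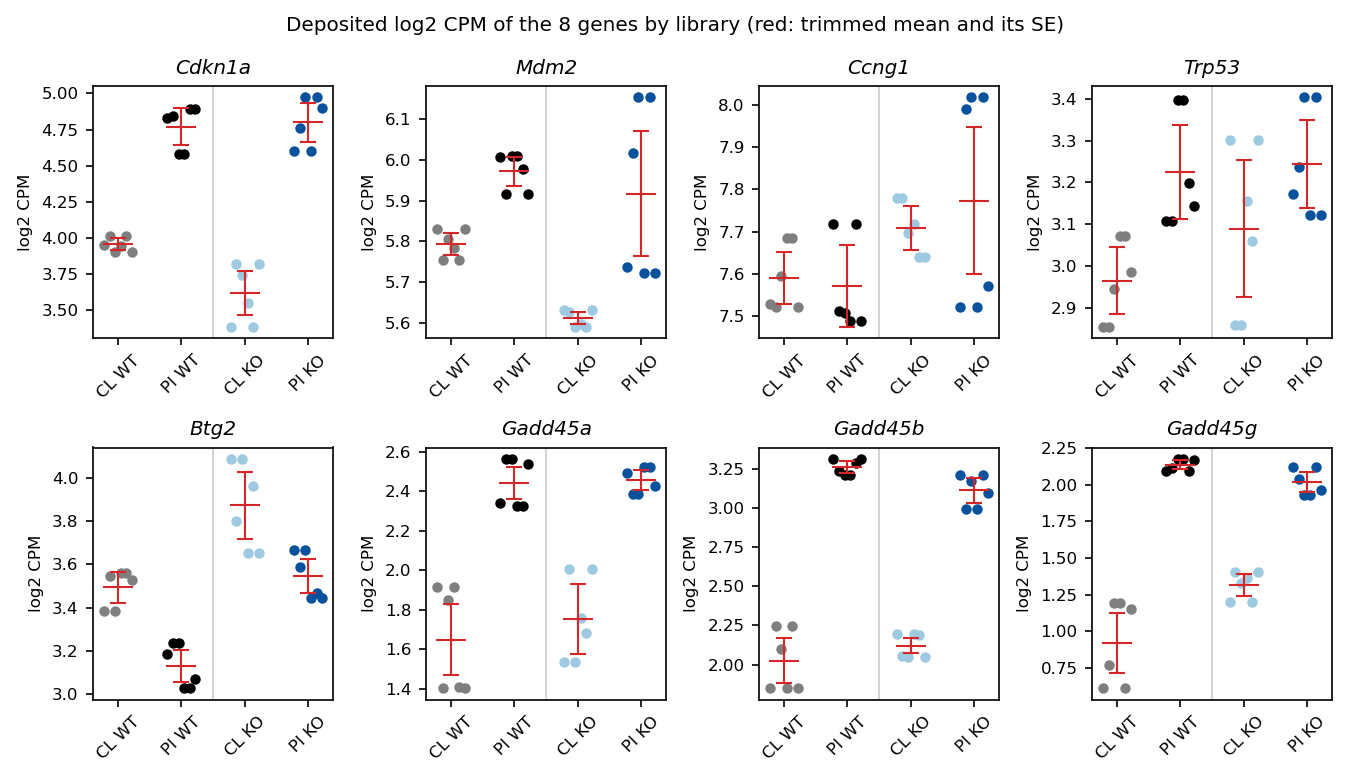
Deposited log2 CPM of each gene (y axis, scaled per gene) in the 6 libraries of each group, with the trimmed mean and its SE in red. The grey line parts 2 separately scaled tables, so levels are compared only left or right of it. Cdkn1a and the 3 GADD45 genes sit higher in PI than in CL without overlap in both genotypes, and the groups of Ccng1 overlap in both.

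The first comparison asked which of the genes differed between the PI and CL libraries of WT mice. It called 1537 of 14489 genes, or 10.6%, with 5.2% higher and 5.4% lower in PI, and it called 4 of the 8 genes, all higher in PI. The deposited values of PI and CL did not overlap for 7 of the 8, against 32.8% of all genes, and of these 7 Trp53 overlapped once the inner values were recovered.

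Cdkn1a, the inhibitor p21 (chr17:29090976-29100727, plus strand), had a lowest, median and highest level of 3.91, 3.95 and 4.01 log2 CPM in CL WT and 4.58, 4.84 and 4.89 in PI WT. As deposited, the PI values lay above all CL values, and PI was higher within 6 of 6 animals. The trimmed means differed by 0.81 ± 0.12 (SE) on the log2 scale, a 1.76-fold difference (moderated trimmed-mean test, limma, adjusted p = 0.000893). About 87 to 133 reads per CL library and 148 to 282 per PI library stood behind these levels. On the opposite strand Cdkn1a shares 1046 bases with AC167363.2, and whether the counting used strand is not given in the sources used here.

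The largest difference among the 8 belonged to Gadd45b (chr10:80930073-80932204, plus strand), a sensor of stress that binds MEKK4. Its levels in CL WT were 1.85, 1.98 and 2.25 log2 CPM (lowest, median, highest), and in PI WT they were 3.21, 3.26 and 3.31. The groups were separate, the PI libraries lay close together, and PI was higher within 6 of 6 animals. The difference was 1.24 ± 0.15, or 2.36-fold (adjusted p = 0.000367, limma), within error of that of Gadd45g. It exceeded in size the difference of 98.6% of genes in the table.

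Gadd45g, the third paralog (chr13:51846678-51848468, plus strand), had 0.61, 0.96 and 1.19 log2 CPM in CL WT, where it also had the lowest level per kb of the 8. In PI WT it stood at 2.09, 2.14 and 2.17, above all deposited CL values. The difference was 1.21 ± 0.23, or 2.32-fold (adjusted p = 0.00445, limma), and PI was higher within 6 of 6 animals. Counting error weighs most here, with about 10 to 16 reads per CL library and 28 to 42 per PI library.

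Gadd45a, the p53-responsive paralog (chr6:67035096-67037457, minus strand), had 1.40, 1.63 and 1.92 log2 CPM in CL WT and 2.33, 2.44 and 2.56 in PI WT. The groups did not overlap, and the CL libraries fell into a lower and a higher trio. The difference was 0.79 ± 0.20, or 1.73-fold (adjusted p = 0.0224, limma). The call was lost, with an adjusted p of up to 0.0671, when PI WT replicate 2, 3 or 6 or CL WT replicate 2, 5 or 6 was left out. Gadd45a shares 859 bases with E230016M11Rik on the opposite strand, and since the use of strand is not given, reads of the pair may be mixed. The difference of E230016M11Rik itself was 0.06 ± 0.16 (adjusted p = 0.868, limma).

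Mdm2, the ligase that degrades p53 (chr10:117688875-117710758, minus strand), moved little. It stood at 5.75, 5.79 and 5.83 log2 CPM in CL WT and 5.92, 5.99 and 6.01 in PI WT. These groups were separate, yet the difference of 0.18 ± 0.06, or 1.13-fold, was not called (adjusted p = 0.0859, limma).

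Ccng1, cyclin G1 (chr11:40748552-40755311, minus strand), had 7.52, 7.56 and 7.69 log2 CPM in CL WT and 7.49, 7.51 and 7.72 in PI WT, and the groups overlapped. Its difference was -0.02 ± 0.09 (adjusted p = 0.935, limma), with a 95% interval of -0.21 to 0.18. Trp53 itself (chr11:69580359-69591873, plus strand) had 2.85, 2.97 and 3.07 log2 CPM in CL WT and 3.11, 3.17 and 3.40 in PI WT. Its deposited groups just missed each other but overlapped in the recovered inner values, and the difference was 0.26 ± 0.14 (adjusted p = 0.283, limma).

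Btg2 (chr1:134075170-134079120, minus strand) was the member whose deposited values lay apart in the other direction, with 3.38, 3.54 and 3.56 log2 CPM in CL WT and 3.03, 3.13 and 3.23 in PI WT. As deposited, the PI values lay below all CL values, and PI was lower within 6 of 6 animals. The difference of -0.36 ± 0.12 was not called (adjusted p = 0.0688, limma). It was called when each library was centred on its median gene, at -0.40 (adjusted p = 0.0445), and without CL WT replicate 1 (0.0497) or replicate 3 (0.0490).

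**Figure D2:**
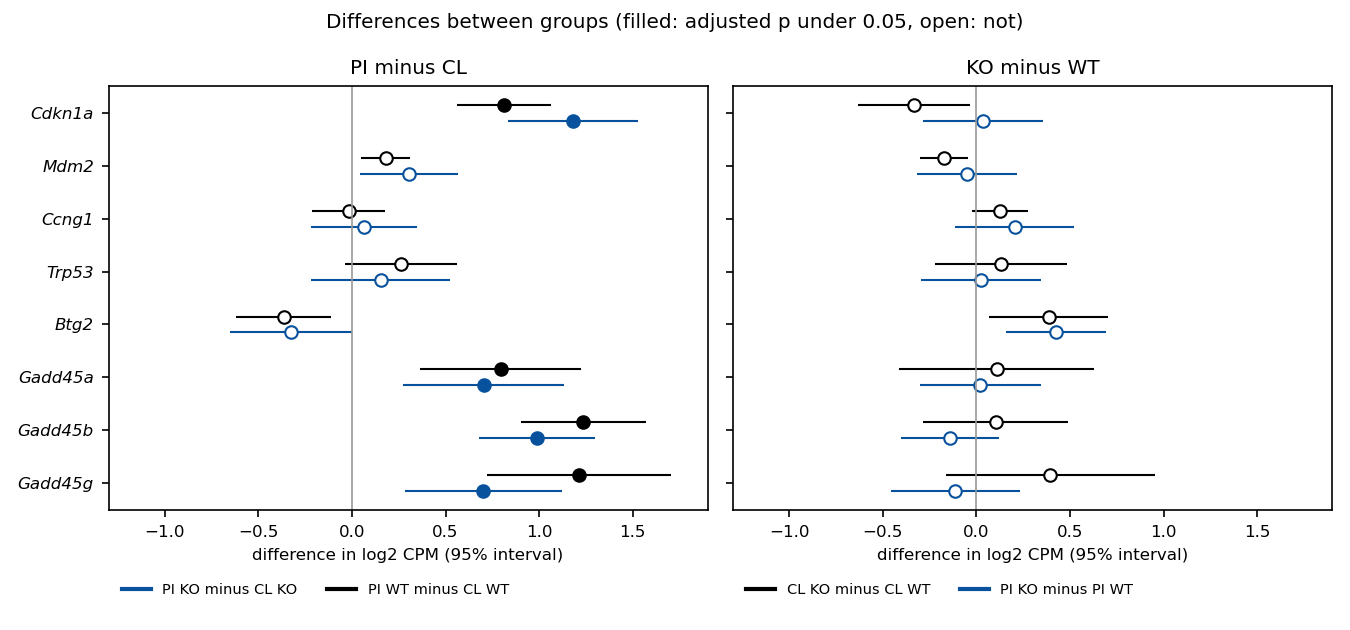
Difference in log2 CPM (x axis) of each gene (y axis) between PI and CL (left) and between KO and WT (right), with 95% intervals and filled points where the adjusted p was under 0.05. On the left only Cdkn1a and the 3 GADD45 genes are filled, in both genotypes, and on the right no gene is.

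The same question in KO mice gave the same 4 calls. It called 1440 of 14338 genes, or 10%, with 5.11% higher and 4.94% lower in PI, and the groups of 5 of the 8 genes did not overlap, against 34.3% of all genes. The libraries of this comparison are separate from those of the WT comparison.

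Cdkn1a stood at 3.39, 3.65 and 3.82 log2 CPM in CL KO and at 4.60, 4.83 and 4.97 in PI KO, with no overlap. The difference was 1.18 ± 0.16, or 2.27-fold (adjusted p = 0.000732, limma), the largest of the 8 in this genotype, and PI was higher within 6 of 6 animals.

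Gadd45b had 2.05, 2.12 and 2.19 log2 CPM in CL KO and 2.99, 3.13 and 3.21 in PI KO. The groups were separate and differed by 0.99 ± 0.14, or 1.99-fold (adjusted p = 0.00106, limma).

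Gadd45g rose from 1.20, 1.34 and 1.40 log2 CPM in CL KO to 1.93, 2.0 and 2.12 in PI KO, without overlap. The difference was 0.70 ± 0.19, or 1.63-fold (adjusted p = 0.0378, limma). With each animal's CL and PI libraries paired, the adjusted p was 0.0635, and of 12 fits that left out 1 library the call held only without PI KO replicate 4 or CL KO replicate 6, with an adjusted p of up to 0.0916.

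Gadd45a had 1.54, 1.72 and 2.01 log2 CPM in CL KO and 2.39, 2.46 and 2.52 in PI KO, again separate. The difference was 0.70 ± 0.20, or 1.63-fold (adjusted p = 0.0409, limma). The call was lost when limma's prior variance was held constant over expression (adjusted p = 0.0503), and of the 12 fits without 1 library it held only without CL KO replicate 2 or 6, with an adjusted p of up to 0.0960.

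Mdm2 in KO stood at 5.59, 5.61 and 5.63 log2 CPM in CL and, with a much wider spread, at 5.72, 5.88 and 6.15 in PI. The groups were separate and the difference was 0.31 ± 0.12, or 1.24-fold, which was not called (adjusted p = 0.133, limma) but was called with the animals paired (adjusted p = 0.0210). Ccng1 showed the same wide spread in PI KO, at 7.52, 7.78 and 8.02 log2 CPM against 7.64, 7.71 and 7.78 in CL KO. In both genes replicates 2, 3 and 5 of PI KO were the upper 3 libraries. The difference of Ccng1 was 0.06 ± 0.13 (adjusted p = 0.814, limma).

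Trp53 stood at 2.86, 3.11 and 3.30 log2 CPM in CL KO and 3.12, 3.20 and 3.40 in PI KO, overlapping, with a difference of 0.15 ± 0.17 (adjusted p = 0.637, limma). Btg2 had 3.65, 3.88 and 4.09 log2 CPM in CL KO and 3.45, 3.53 and 3.67 in PI KO, which overlapped slightly. The difference of -0.33 ± 0.15 was not called (adjusted p = 0.200, limma).

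**Figure D3:**
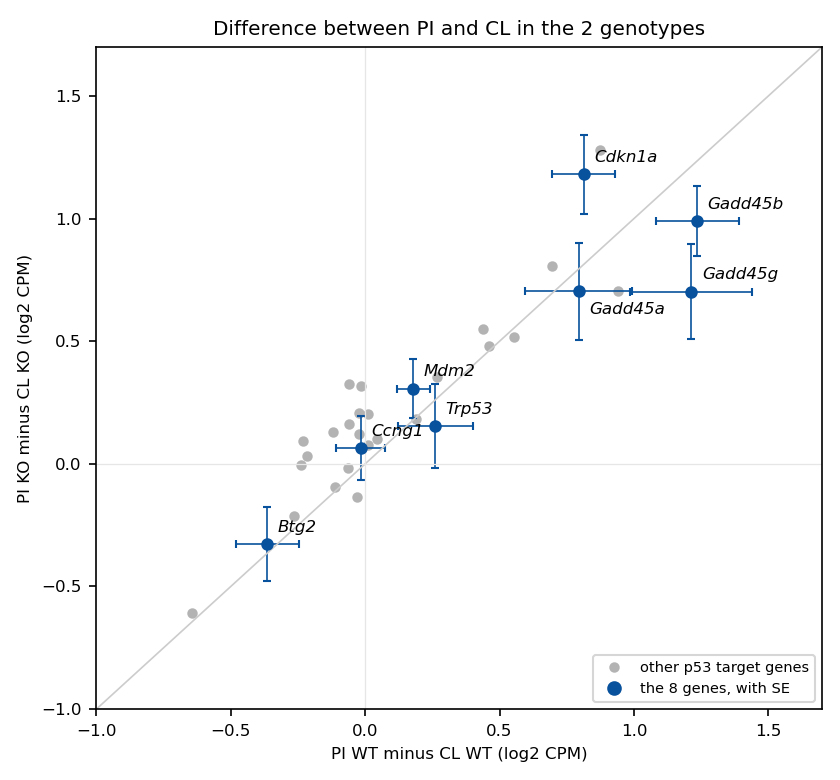
Difference between PI and CL in WT (x axis) against KO (y axis), in log2 CPM, for the 8 genes with SE bars and for the other p53 targets in grey, with the line of equal differences. Cdkn1a lies above the line at 0.81 and 1.18, Gadd45g below it at 1.21 and 0.70, and no gene's distance from the line passed the test.

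Whether the difference between PI and CL itself depended on genotype was tested as a difference of differences over 14211 genes in both tables. It called 0 genes, or 0% (limma), with 646 genes or 4.55% at an unadjusted p under 0.05, none of them among the 8. Cdkn1a came to 0.37 ± 0.21 (unadjusted p = 0.0990, adjusted p = 0.992, limma), with a 95% interval of -0.08 to 0.81. Gadd45g came to -0.51 ± 0.28 (unadjusted p = 0.0868, adjusted p = 0.992, limma), with an interval of -1.11 to 0.08. These intervals are wide beside the differences they compare. The other 6 genes lay between -0.25 for Gadd45b and 0.13 for Mdm2.

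The next comparison asked how KO and WT differed within a side. Among PI libraries 3 of 14452 genes, or 0.0208%, were called and among CL libraries 4 of 14323, or 0.0279%, with 5.75% and 5.73% of genes at an unadjusted p under 0.05. None of the 8 genes was called on either side. Only 1 of the 8 was at an unadjusted p under 0.05 in PI and 3 were in CL, and the tables are scaled apart from those above, so levels differ slightly from them.

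Btg2 lay higher in KO on both sides. In PI it had 3.05, 3.16 and 3.26 log2 CPM in WT and 3.48, 3.56 and 3.70 in KO, without overlap, against non-overlap in 14.1% of genes. The difference was 0.43 ± 0.12 (unadjusted p = 0.00467, adjusted p = 0.768, limma). In CL it had 3.35, 3.50 and 3.53 log2 CPM in WT and 3.62, 3.86 and 4.06 in KO, without overlap, and the difference was 0.39 ± 0.15 (unadjusted p = 0.0206, adjusted p = 0.824, limma).

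The immediate early genes, the rapid transcriptional response class to which Btg2 also belongs, were measured beside it. In CL 17 of the 19 listed had a higher trimmed mean in KO, with a median difference of 0.49 against -0.00 over all genes, 13 at an unadjusted p under 0.05 and 0 called. In PI 14 of 19 did, with a median of 0.32, 4 at an unadjusted p under 0.05 and 0 called. The 19 are not the same set, since Egr2 was listed only in CL here and Atf3 only in PI. What part this class has in the values of Btg2 was not tested.

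Among CL libraries Cdkn1a and Mdm2 lay lower in KO. Cdkn1a had 3.87, 3.91 and 3.98 log2 CPM in CL WT and 3.36, 3.62 and 3.79 in CL KO, without overlap, against non-overlap in 13.5% of genes. Its difference was -0.33 ± 0.14 (unadjusted p = 0.0311, adjusted p = 0.825, limma). Mdm2 had 5.72, 5.76 and 5.80 log2 CPM in CL WT and 5.57, 5.59 and 5.61 in CL KO, also separate, and differed by -0.17 ± 0.06 (unadjusted p = 0.0115, adjusted p = 0.740, limma).

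Gadd45g in CL had deposited values of 0.58, 0.93 and 1.16 log2 CPM in WT and 1.17, 1.31 and 1.37 in KO, which were separate only because they were drawn in, since the recovered inner values overlapped, with a difference of 0.40 ± 0.26 (adjusted p = 0.902, limma). In PI, Cdkn1a differed by 0.03 ± 0.15, Mdm2 by -0.05 ± 0.12 and Gadd45g by -0.11 ± 0.16 between KO and WT, all with overlapping groups. Gadd45a, Gadd45b, Ccng1 and Trp53 differed by between -0.14 and 0.20 over both sides, all with overlapping groups and unadjusted p-values of at least 0.0881.

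Levels per kb of merged exon allow the genes to be set side by side. In CL WT the order by median was Ccng1 at 53.8 CPM per kb, Mdm2 at 10.9, Cdkn1a at 4.35, Btg2 at 4.23, Gadd45b at 2.47, Trp53 at 1.93, Gadd45a at 1.75 and Gadd45g at 1.66. The ranges of Cdkn1a and Btg2 overlapped there, as did those of Trp53, Gadd45a and Gadd45g. In PI WT it was Ccng1 at 51.9 CPM per kb, Mdm2 at 12.5, Cdkn1a at 8.06, Gadd45b at 6.02, Gadd45g at 3.76, Btg2 at 3.19, Gadd45a at 3.07 and Trp53 at 2.23. Only Btg2 and Gadd45a overlapped as neighbours. Gadd45g thus stood last of the 8 in CL WT and at rank 5 in PI WT, and Btg2 went from rank 4 to rank 6.

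In CL KO Btg2, at 5.37 CPM per kb, ranked above Cdkn1a at 3.53, and their ranges of 4.58 to 6.20 and 2.95 to 3.97 did not overlap. In PI KO Cdkn1a at 8.0 CPM per kb and Gadd45b at 5.52 again ranked above Btg2 at 4.20. Ccng1 and Mdm2 were the upper 2 in all 4 groups, and Trp53 was the lowest of the 8 in both PI groups, at 2.28 CPM per kb in PI KO.

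Of 33 other known p53 targets 25 were listed, of which 3 were called between PI and CL in WT and 1 in KO, beside 10.6% and 10% of all genes. At an unadjusted p under 0.05 stood 13 of the 25 in WT and 9 in KO, beside 23.9% and 24.9% of all genes. In WT 1 rose in PI, Pmaip1, which encodes the proapoptotic protein Noxa (0.88 ± 0.18, adjusted p = 0.00783, limma). Perp, a desmosomal and proapoptotic membrane protein, fell by 0.64 (SE 0.17, adjusted p = 0.0274, limma) and Zmat3, an RNA-binding zinc finger protein, fell by 0.27 (SE 0.06, adjusted p = 0.0165, limma). The call of Zmat3 was lost without a variance trend (adjusted p = 0.0627), and that of Perp in 6 of 12 fits that left out 1 library (adjusted p of up to 0.0652). The median over the 25 was -0.02, against 0.01 over all genes and 0.53 over the 8. In KO 1 of the 25 rose, again Pmaip1 (1.28 ± 0.38, adjusted p = 0.0495, limma), and 0 fell, with a median of 0.16 against -0.00 over all genes and 0.50 over the 8. The call of Pmaip1 in KO was lost under 3 of 7 other settings and in 10 of 12 fits that left out 1 library, with an adjusted p of up to 0.140. Between KO and WT 0 of these targets were called. In CL 18 of 24 listed lay lower in KO and 6 higher (median -0.05), with 3 at an unadjusted p under 0.05, beside 5.73% of all genes. In PI 17 of 26 lay higher and 9 lower (median 0.04). For the difference of differences 21 of 25 lay above 0 and 4 below (median 0.11, against -0.00 over all genes). There 0 were called and 3 stood at an unadjusted p under 0.05, beside 4.55% of all genes.

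Of 22 regulators and partners of p53, 17 were listed. At an unadjusted p under 0.05 stood 3 of the 17 in WT and 6 in KO, beside 23.9% and 24.9% of all genes. In each genotype 1 was called higher and 1 lower. Over all genes 5.2% were called higher and 5.4% lower in WT, and 5.11% and 4.94% in KO. Rps27l, a ribosomal protein paralog that acts on Mdm2, rose in PI by 0.61 ± 0.12 in WT (adjusted p = 0.00573, limma) and 0.71 ± 0.13 in KO (adjusted p = 0.00428). Herc2, a large ubiquitin ligase, fell by 0.19 (adjusted p = 0.0324, limma) and 0.20 (adjusted p = 0.0232), and the other 15 were not called in either genotype.

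Of 20 kinases and partners of GADD45 proteins, 17 were listed. At an unadjusted p under 0.05 stood 3 of the 17 in WT and 6 in KO, beside 23.9% and 24.9% of all genes. In WT 1 was called higher and 2 lower, beside 5.2% and 5.4% of all genes. In KO 0 were called higher and 1 lower, beside 5.11% and 4.94%. In WT Tdg, a DNA glycosylase of active demethylation, rose by 0.30 ± 0.07 (adjusted p = 0.0213, limma), and the kinases Mapk10 and Map2k4 fell by 0.18 and 0.17 (adjusted p = 0.0398 and 0.0281). In KO Mapk10 fell by 0.24 (adjusted p = 0.0212, limma) and 0 rose. The calls of Herc2, Tdg, Mapk10 and Map2k4 were lost without a variance trend and in 3 to 9 of 12 fits that left out 1 library.

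No gene passed among 9 listed members of the BTG and TOB family and CCR4-NOT complex, or among the 4 other CDK inhibitors listed, in either genotype. At an unadjusted p under 0.05, which 23.9% of all genes reached in WT and 24.9% in KO, stood 1 of 9 in each genotype, and 1 of 4 in WT and 0 of 4 in KO. Of 12 cyclins, CDKs and proliferation genes listed, Ccnd1, which encodes cyclin D1, rose by 0.64 ± 0.12 in WT (adjusted p = 0.00461, limma) and 0.61 ± 0.09 in KO (adjusted p = 0.000910), and the other 11 were not called. At an unadjusted p under 0.05 stood 5 of these 12 in WT and 3 in KO. Over all genes 5.2% were called higher in WT and 5.11% in KO.

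Among the immediate early genes more fell in PI than rose. Of 19 listed, 2 rose and 7 fell in WT, with a median of -0.46, and 1 rose and 6 fell in KO, with a median of -0.61. Over all genes 5.2% rose and 5.4% fell in WT, and 5.11% rose and 4.94% fell in KO. At an unadjusted p under 0.05 stood 13 of the 19 in WT and 11 in KO. Jun rose in both, by 0.43 ± 0.08 (adjusted p = 0.00437, limma) and 0.42 ± 0.09 (adjusted p = 0.00907). Nr4a2, a nuclear receptor, fell by 1.56 in WT (adjusted p = 3.35e-05, limma) and by 1.24 in KO (adjusted p = 0.0312). In WT Ier5 rose by 0.30 (adjusted p = 0.0231, limma), and the transcription factor genes Egr1, Egr4 and Nr4a1 fell by 1.08, 0.93 and 0.85 (adjusted p of at most 0.00659). In KO Egr2, Nr4a1 and Egr3 fell by 2.0, 1.14 and 0.82 (adjusted p of at most 0.0116, limma). Without a variance trend the calls of Ier5 in WT and of Nr4a1 and Nr4a2 in KO were lost, and leaving out 1 library ended that of Ier5 in 5 of 12 fits and that of Nr4a2 in KO in 8 of 12. Differences lay below 0 for 14 of the 19 in WT and 15 in KO, the direction in which Btg2 lay at -0.36 and -0.33 without a call.

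**Figure D4:**
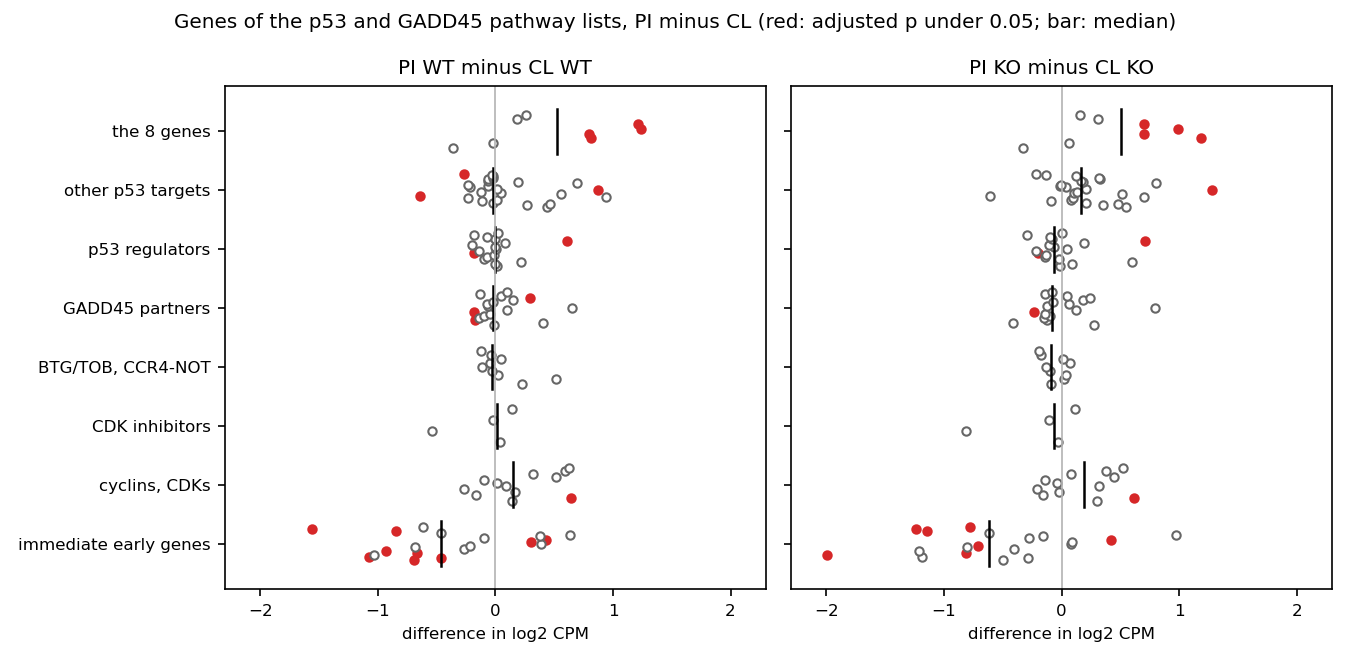
Difference in log2 CPM between PI and CL (x axis) for each listed gene of the 8 and of the 7 pathway lists (rows), in WT (left) and KO (right), with red points called and a bar at the median. The median of the 8 genes is 0.53 in WT and 0.50 in KO, and that of the immediate early genes is -0.46 and -0.61.

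These are bulk samples, in which fewer cells of a type and less RNA per cell cannot be told apart. Summed markers of some cell types moved with the side. Those of endothelium, mural cells and oligodendrocyte precursors overlapped between CL and PI in both genotypes, though single markers differed. Slco1a4, the largest part of the endothelial sum, lay at -0.48 in both and was called in KO (adjusted p = 0.00234, limma). The other 6 endothelial markers lay above 0 in both without a call, Cdh5 at 0.79 and 0.55. Of the precursor markers Cspg4 was called lower in WT only (-0.53, adjusted p = 0.0164, limma). In WT the 10 cortical neuron markers summed to 6064 to 6599 CPM in CL and 5230 to 5827 in PI, and the 8 microglia markers to 191 to 209 and 213 to 242. In KO neurons had 6159 to 6381 CPM in CL and 5033 to 5633 in PI, and microglia 206 to 223 and 241 to 285. Snap25 and Syt1, called lower in both genotypes, make up most of the neuron sum. Differences lay above 0 for 3 of the 10 neuron markers in WT and 1 in KO. Of these Gad2 lay at 0.28 in WT without a call and at 0.38 in KO (adjusted p = 0.00652, limma). Among the microglia markers P2ry12 went the other way, with differences of -0.82 in WT and -0.75 in KO (adjusted p = 0.0139 and 0.00303, limma), and Tmem119 lay at -0.15 and -0.31 without a call. The 7 oligodendrocyte markers summed to 2147 to 2342 CPM in CL and 1499 to 2113 in PI in WT, without overlap, and to 1711 to 2325 and 1654 to 1877 in KO, with overlap. The 8 astrocyte markers summed to less in PI in both genotypes, while Gfap among them was higher by 1.88 in WT and 2.19 in KO on the log2 scale. Aqp4 was also called higher, by 0.27 and 0.41 (adjusted p = 0.0125 and 0.0140, limma). Aldh1l1 lay at 0.27 and 0.15 without a call, and the other 5 lay below 0 in both genotypes. The sum rests mostly on Slc1a2, which lay at -0.23 in both and was called only in WT (adjusted p = 0.0211 and 0.0572, limma). None of the 12 neutrophil and monocyte markers was listed in the tables of PI against CL, and 2 were listed between the PI groups, at 3.39 to 9.32 CPM in KO and 2.20 to 4.12 in WT. The part of these shifts in the differences of Cdkn1a and the GADD45 genes was not tested.

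The genes with the most similar pattern were sought over the 24 library columns of the tables of PI against CL, by the root mean square difference of centred log2 CPM among 13360 genes. Nearest to Cdkn1a were S100a16 at 0.158, Lrig1 at 0.169 and Ptprc at 0.174. Nearest to Gadd45b were Pros1 at 0.151, Stat3 at 0.152 and Serpinh1 at 0.153. For Gadd45a they were Nckap1l at 0.175, C1qa at 0.176 and Stk40 at 0.177, and for Gadd45g they were Vasp at 0.164, Cd53 at 0.186 and 5330416C01Rik at 0.195. No member was among the nearest 3 of another. The likeness is a description, since the columns share libraries and each gene's side difference dominates it.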

How the data were processed

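Ribosome-depleted total RNA of mouse cortex was sequenced with the CORALL kit, per the labels' protocols, in 24 libraries of 4 groups. The authors deposited 4 tables of log2 CPM per gene symbol, each scaled on its own, so tests stayed within a table. The genome build is mm10, per the submitters' processing notes. The aligner, the annotation, the filter, the use of strand and the use of molecular identifiers are not given in the sources used here. The labels call the 6 libraries of a group biological replicates.

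In every gene the deposited values beyond the quartiles of a group are replaced by those quartiles. The 4 inner values of each 6 were solved from the quartile weights (0.75 and 0.25), and the lowest and highest cannot be recovered. Differences of trimmed means were tested with Winsorized variances on 6 degrees of freedom (12 for the difference of differences), moderated with limma 3.58.1 in R 4.3.3 with a trend, two-sided, with Benjamini-Hochberg adjustment over all genes of the table. The method was tested on simulated data drawn in by the same rule. Such a test cannot show that the deposited values were drawn in by that rule. A standard error of a group is shown in place of a standard deviation. Effective depth was estimated from the spacing of low CPM values. Of these values 77.6% to 90.8% were whole multiples of 1 read within 0.03 reads. Intervals from reads cover counting error only. Gene positions and merged exons come from GENCODE M21.

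The 8 genes, the pathway lists and the markers were chosen with earlier results of these data known. All 8 are named in every comparison. For PI against CL the called genes of each list were named, up to 4 in each direction by size, and lists without calls were given by counts. Between KO and WT and for the difference of differences no listed gene was called. Counts are given there for the other p53 targets, and between KO and WT also for the immediate early genes. Similar genes were the nearest 3 to each gene called in both genotypes. CL and PI libraries of 1 number come from the same animal, per the genotype label. Their deviations correlated between -0.04 and 0.25 in WT and between -0.04 and 0.23 in KO. Alternatives were limma on the deposited values, no variance trend, median centring, a pseudocount of 1, a minimum mean log2 CPM of 1, pairing and leaving out each library.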

Additional observations from a re-analysis of the deposited data

How the results depend on the processing

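Limma on the deposited values takes drawn-in values as measured, which shrinks the spread by construction. It called 7 of the 8 genes between PI and CL in WT and 6 in KO, 1 between KO and WT in PI, 4 in CL and 2 for the difference of differences, with 6459, 6666, 2388, 2311 and 1940 genes in all. With the replicate block added to that fit the counts of the 8 were 7, 6, 1, 3 and 2. With the replicate block in the trimmed-mean test the counts stayed at 4, 4, 0, 0 and 0, and besides Gadd45g and Mdm2 in KO it changed no other call of the 8. All genes called were then 2275, 2154, 6, 85 and 1. Replicate numbers of KO and WT mark different animals, and their deviations correlated between -0.16 and 0.16. Without a variance trend the test between PI and CL called 1015 genes in WT and 739 in KO. Leaving out 1 library gave 2 to 4 of the 8 in KO, and Cdkn1a and Gadd45b kept their calls in 12 of 12 such fits in each genotype. Under the alternatives run, no called difference of the 8 reversed. Depth limits Gadd45g most, and all p-values rest on 4 recoverable values of 6 per group.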
